A study of Mus musculus with 26 samples.

Results

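The cytochrome P450 genes of families 1 to 4 were followed in mouse epithelium, taken from the proximal small intestine, after deletion of SMAD1 and SMAD5, of SMAD1, SMAD4 and SMAD5 together, of SMAD4 alone, or of TBX3. A gene was taken as a member when its symbol named a P450 family from 1 to 4, a subfamily letter and a number. This gave 65 genes among the 20409 symbols of the 4 expression tables, and 46 of them were listed in every table. By family they were 3, 34, 8 and 20 genes, in the order of families 1 to 4, and 5 symbols belonged to pseudogenes or antisense transcripts. No measured value entered the choice. An expression of at least 1 FPKM (fragments per kilobase of exon, scaled to the number of mapped fragments of the library) in as many libraries as the smallest group of the table was required for testing. It was met by 29 of 53 listed members in the day 6 SMAD1/5 table, 28 of 50 in the day 30 SMAD table, 28 of 56 in the SMAD4 table and 25 of 57 in the TBX3 table. In all, 33 members met it in at least 1 table, 23 in every table and 32 in none.

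Cytochrome P450 enzymes are haem proteins that insert an oxygen atom into fat-soluble compounds, mostly in the membrane of the endoplasmic reticulum, with electrons passed on by P450 reductase and cytochrome b5. Families 1 to 3 oxidise drugs, toxins, steroids and arachidonic acid, and many of their genes are switched on by the ligand-activated receptors PXR, CAR and AHR. Family 4 enzymes hydroxylate fatty acids and the lipid mediators made from them. In the small intestine these enzymes sit in the absorptive enterocytes of the villus and act on swallowed compounds before these reach the liver.

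Mice carrying Villin-CreERT2, a tamoxifen-activated Cre recombinase driven by an epithelial promoter, were injected with tamoxifen on 4 consecutive days, and whole epithelium was taken 6 or 30 days after the first injection. The day 6 libraries were 3 labelled SMAD1/5 iDKO (both genes deleted) against 3 tamoxifen-injected controls of the same line, and 2 labelled SMAD4 iKO against 2 oil-injected controls. The day 30 libraries were 2 labelled SMAD1/5 iDKO and 3 labelled SMAD1/4/5 iTKO (all 3 genes deleted) against 5 controls, and 3 labelled TBX3 iKO against 3 oil-injected controls. The 5 day 30 SMAD controls were 2 libraries from the tamoxifen-injected SMAD1/5 line and 3 from the oil-injected SMAD1/4/5 line. Per the labels, controls were sex-matched littermates that either lacked the Cre and received tamoxifen or carried it and received oil. Active Cre and gene deletion therefore went together in every mutant library and cannot be told apart, and in the SMAD4 and TBX3 tables the same holds for tamoxifen itself. The labels do not say that replicates came from separate animals, so p-values measure the spread between these libraries.

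The 26 libraries came in 4 separately normalised tables and no test crossed them. Depth, estimated from the steps between low values, ran from 21.1 to 30.7 megafragments on day 6 in the SMAD1/5 line, from 13.2 to 18.1 among the day 30 SMAD libraries and from 9.98 to 18.6 for TBX3. It is unknown for SMAD4. Smad4 stood at 5.11 to 7.19 FPKM in SMAD4 iKO libraries against 22.9 to 24.9 in controls, and at 32.1 to 46.7 FPKM in iTKO libraries against 128 to 163 in controls. Tbx3 stood at 7.53 to 22.9 FPKM in TBX3 iKO libraries against 45.5 to 56.3 in controls. The gene totals of Smad1 overlapped between iDKO libraries and controls at both days, and those of Smad5 were higher in iDKO, at 10.4 to 13.1 against 5.69 to 6.33 FPKM on day 6. A gene total counts exons that a deletion leaves in place, so the iDKO and iTKO names rest on the labels and every direction below holds for libraries so labelled. The enterocyte gene Vil1 was present in every library, from 516 to 3037 FPKM. The liver gene Alb reached at most 0.71 FPKM, but other listed liver genes were present. Their list summed to 255 to 387 FPKM in day 6 iDKO libraries against 86.3 to 243 FPKM in controls. On day 30 it summed to 280 to 313 FPKM in iDKO libraries against 189 to 257 FPKM in controls. None of those tested was called in either, against 23.8% and 18.7% of all genes, and the sums overlapped in the other mutants. In SMAD4 iKO 1 of 2 tested, Ttr, was called higher, against 1.28% of all genes.

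The bases just upstream of 5 members are given first. They are 3 drug-oxidising genes that fell in the SMAD mutants, 1 epoxygenase gene that fell in TBX3 iKO and the 1 gene that rose in several mutants. Half-sites of PXR and CAR, among the receptors named above, can be looked for in them. The AHR string is not marked here and is counted below. The windows are the 250 bases before the annotated start in RefSeq (build GRCm38.p6), read in the direction of the gene. They lie at chr5:145879855-145880104 (minus strand), chr7:25897408-25897657 (plus), chr19:39286835-39287084 (plus), chr4:96553652-96553901 (minus) and chr17:32536307-32536556 (plus). Capitals mark AGGTCA, the half-site of many nuclear receptors, AGTTCA, the half-site variant of PXR and CAR type, and TATAAA, each on either strand.
Cyp3a11: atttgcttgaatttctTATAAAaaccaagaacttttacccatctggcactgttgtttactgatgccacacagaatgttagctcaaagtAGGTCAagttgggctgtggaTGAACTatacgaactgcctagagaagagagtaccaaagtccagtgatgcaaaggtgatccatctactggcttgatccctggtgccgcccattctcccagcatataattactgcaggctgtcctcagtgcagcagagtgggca
Cyp2b10: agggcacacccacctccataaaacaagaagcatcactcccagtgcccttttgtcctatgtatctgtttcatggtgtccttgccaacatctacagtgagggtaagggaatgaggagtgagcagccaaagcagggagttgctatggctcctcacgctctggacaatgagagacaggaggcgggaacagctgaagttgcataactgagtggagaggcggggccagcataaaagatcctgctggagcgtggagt
Cyp2c29: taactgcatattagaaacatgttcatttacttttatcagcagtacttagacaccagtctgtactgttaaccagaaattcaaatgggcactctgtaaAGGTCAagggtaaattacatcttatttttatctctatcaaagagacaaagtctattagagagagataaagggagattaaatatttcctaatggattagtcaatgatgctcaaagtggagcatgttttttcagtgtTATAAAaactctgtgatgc
Cyp2j6: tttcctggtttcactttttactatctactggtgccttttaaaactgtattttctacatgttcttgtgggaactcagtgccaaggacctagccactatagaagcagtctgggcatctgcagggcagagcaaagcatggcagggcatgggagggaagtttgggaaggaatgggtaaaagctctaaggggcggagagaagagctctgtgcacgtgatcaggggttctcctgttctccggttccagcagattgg
Cyp4f16: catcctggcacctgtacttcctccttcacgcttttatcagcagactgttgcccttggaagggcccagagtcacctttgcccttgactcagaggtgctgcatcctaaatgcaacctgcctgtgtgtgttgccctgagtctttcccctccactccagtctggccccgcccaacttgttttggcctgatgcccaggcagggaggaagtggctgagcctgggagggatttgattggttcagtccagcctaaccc
The Cyp3a11 window held TATAAA with its first base 234 bases before the start, AGGTCA at 162 bases and the reverse strand of AGTTCA at 142 bases. The Cyp2c29 window held AGGTCA at 154 bases and TATAAA at 19 bases. None of the marked strings stood in the windows of Cyp2b10, Cyp2j6 and Cyp4f16, which says only that these letters are not there.

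Among 32851 such windows of all genes, 14.0% held AGGTCA, 11.8% AGTTCA and 12.4% TATAAA. Of the 27 members with a window that met the expression filter, 4 held AGGTCA (Cyp2c29, Cyp3a11, Cyp3a25 and Cyp3a44), 4 held AGTTCA (Cyp3a11, Cyp4a32, Cyp4f13 and Cyp4v3) and 11 held TATAAA. A T-box half-site, TCACACC, was in 3.33% of all windows and in 1 of the 27, Cyp2s1. The GC-rich string GGCGCC that SMAD1 and SMAD5 bind was in 9.59% of all windows and in 1 of the 27, Cyp2r1. TNGCGTG, the string bound by AHR, was in 4.10% of all windows and in 1 of the 27, Cyp2c68. Strings were counted on both strands and could overlap, and a string is not shown to be a bound site.

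In control epithelium a handful of members carried most of the P450 message. The 5 leading genes held 59.1% of the summed member FPKM in the day 6 SMAD1/5 controls, 59.6% in the day 30 SMAD controls, 59.4% in the SMAD4 controls and 64.0% in the TBX3 controls. Cyp4f14, a leukotriene and fatty acid hydroxylase, led at day 30, with 682, 855 and 884 FPKM as the lowest, median and highest of the 5 SMAD controls and 814, 789 and 782 FPKM in the 3 TBX3 controls. Cyp3a13, a CYP3A enzyme of the gut, led in the day 6 SMAD1/5 controls with 758, 784 and 739 FPKM. Cyp3a11, the main drug-oxidising CYP3A enzyme of the mouse, led in the SMAD4 controls with 927 and 1088 FPKM. Since FPKM corrects for length, these levels can be set beside each other within a table.

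The order of neighbours was often within the spread. In the day 6 SMAD1/5 controls Cyp4f14 (557 to 646 FPKM) overlapped Cyp3a11 (466 to 686 FPKM), which overlapped Cyp3a25 (452 to 553 FPKM). Cyp2d26 and Cyp2b10 overlapped below them, at 351 to 357 and 310.0 to 383 FPKM. In the day 30 SMAD controls Cyp3a25, Cyp3a13, Cyp2d26 and Cyp3a11 all overlapped, and only Cyp4f14 stood clear of every other member. The classical inducible gene Cyp1a1 was low and uneven, and Cyp2e1, the ethanol-oxidising P450 of liver, did not meet the filter in any table.

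**Figure D1:**
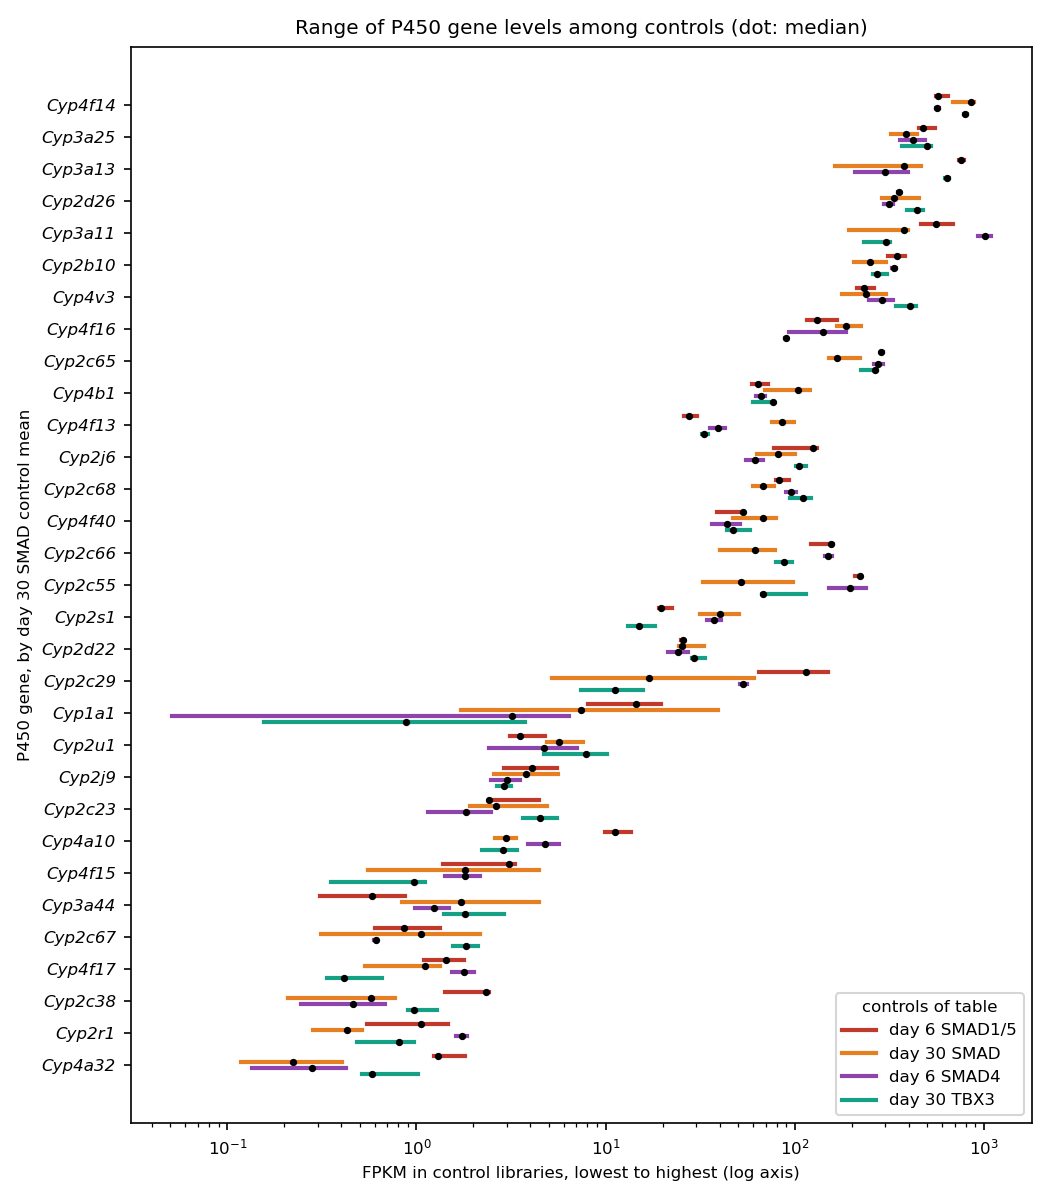
Range from the lowest to the highest FPKM (log axis) among the control libraries of each table for P450 genes that met the expression filter, with the median as a dot. Cyp4f14 lies at the top of the day 30 SMAD controls and Cyp1a1 spans 1.72 to 39.3 FPKM in them.

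On day 6, in libraries labelled SMAD1/5 iDKO, Cyp3a11, Cyp2b10 and Cyp2c55 fell by large amounts, Cyp3a25 and Cyp2c68 fell by less, and Cyp3a13 was not called. Cyp4b1 and Cyp4v3 of the fatty acid family fell, and Cyp4f16 rose. Summed over all listed members, P450 expression was 2197 to 2813 FPKM in iDKO libraries and 4556 to 4932 FPKM in controls. Of 29 members tested, 2 were higher and 17 lower by limma at an adjusted p below 0.05, against 23.8% of all 10827 genes called, 15.5% higher and 8.26% lower. Their median log2 change was -1.07, against 0.18 over all genes, a shift that centring every library on its median removes. Cyp2c29, Cyp2c23, Cyp2c38 and Cyp4a32 passed the filter through the controls alone and had to differ.

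Cyp3a11 stood at 11.8, 23.4 and 8.32 FPKM in the 3 iDKO libraries, against 466, 559.8 and 686 FPKM in the 3 controls. The groups lay far apart, with means of 14.5 ± 7.93 FPKM in iDKO libraries against 571 ± 111 FPKM in controls (SD, n = 3 each), a log2 change of -5.36 ± 0.35 (SE) and an adjusted p of 0.00034. Its relative Cyp3a25 fell less, with means of 239.8 ± 78.9 FPKM in iDKO libraries against 493 ± 53.1 FPKM in controls (log2 -1.10 ± 0.26, adjusted p = 0.028). Cyp3a13 had 736, 895 and 716 FPKM in iDKO libraries and 758, 784 and 739 FPKM in controls, so that the groups overlapped (log2 0.03 ± 0.14, adjusted p = 0.87).

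Cyp2b10, the mouse gene best known for induction through CAR, had 23.3, 15.6 and 4.50 FPKM in iDKO libraries, against 310.0, 383 and 347 FPKM in controls. Even the highest iDKO library was more than 10-fold below the lowest control, and the log2 change was -4.80 ± 0.53 (adjusted p = 0.0019). Cyp2c29, whose enzyme oxidises drugs and arachidonic acid, had 0.735, 0.193 and 0.199 FPKM in iDKO libraries, against 149, 64.2 and 115 FPKM in controls. At the estimated depth the iDKO values correspond to about 67, 18 and 17 fragments, and the controls to 4264 to 9924. Its log2 change of -6.95 ± 0.35 depends on the 0.5 FPKM added before taking logs, and was -7.95 with 0.1 added. Cyp2c29 passed the filter through the controls alone, so no test is given for it.

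The Cyp2c genes, epoxygenases and hydroxylases of arachidonic acid among them, were called lower on day 6 in 7 of 7 tested, against 8.26% of all genes, but Cyp2c29, Cyp2c23 and Cyp2c38 passed the filter through the controls alone and add nothing to that count. Cyp2c55 had 6.84, 8.22 and 3.27 FPKM in iDKO libraries, against 220.2, 222 and 209 FPKM in controls (log2 -5.13 ± 0.29, adjusted p = 0.00023). Cyp2c66 had 32.6, 24.2 and 16.9 FPKM in iDKO libraries, against 154, 122 and 159 FPKM in controls (log2 -2.58 ± 0.24, adjusted p = 0.0011). Neither gene's groups overlapped. Cyp2c65 was lower by less, with means of 101.1 ± 21.4 FPKM in iDKO libraries against 287 ± 3.58 FPKM in controls, and so was Cyp2c68, with means of 41.5 ± 12.2 FPKM in iDKO libraries against 85 ± 7.22 FPKM in controls. Cyp2c23 and Cyp2c38 were below 5 FPKM in every library.

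Among family 4 genes, Cyp4b1 had 5.85, 5.25 and 4.61 FPKM in iDKO libraries, against 72.0, 64.1 and 59.4 FPKM in controls. That gap, a log2 change of -3.52 ± 0.12 with an adjusted p of 5.8e-05, was wide beside the spread within either group. Cyp4v3, the counterpart of the human fatty acid hydroxylase gene CYP4V2, averaged 58.2 ± 23.5 FPKM in iDKO libraries against 235 ± 24.3 FPKM in controls (log2 -2.07 ± 0.27), and Cyp4f14 185 ± 8.78 FPKM in iDKO libraries against 591 ± 48.5 FPKM in controls (log2 -1.67 ± 0.11). Cyp4f16 went the other way, with 579, 523 and 482 FPKM in iDKO libraries and 166, 131 and 116 FPKM in controls (log2 1.95 ± 0.16, adjusted p = 0.00067). It made up 20.4% of the summed member FPKM in iDKO libraries and 2.94% in controls, and ranked second in iDKO libraries behind Cyp3a13. Cyp4f40 was higher too, at 82.0, 75.5 and 66.1 FPKM in iDKO libraries and 53.2, 38.6 and 53.2 FPKM in controls, by a log2 change of 0.63 that lost its call after median centring (0.46, adjusted p = 0.059).

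The remaining day 6 calls were smaller or in genes of low level. Cyp1a1, the AHR target that oxidises polycyclic hydrocarbons, had 6.56, 4.00 and 2.42 FPKM in iDKO libraries and 14.5, 19.6 and 8.03 FPKM in controls (log2 -1.60 ± 0.40, adjusted p = 0.032). Cyp2d22 was lower, with means of 12.1 ± 2.88 FPKM in iDKO libraries against 25.5 ± 0.540 FPKM in controls, whereas its relative Cyp2d26 was not called, with means of 277 ± 43.7 FPKM in iDKO libraries against 354 ± 2.94 FPKM in controls (adjusted p = 0.097). The fatty acid hydroxylase gene Cyp2u1 (log2 -0.77) and Cyp4a32 (log2 -1.07) lost their calls when the replicate number was added as a block. The arachidonic acid epoxygenase genes Cyp2j6 and Cyp2j9 had log2 changes of 0.50 ± 0.25 and 0.27 ± 0.30, neither called. The number called was 13 without iDKO library 2, where Cyp2u1, Cyp3a25, Cyp1a1, Cyp4a32, Cyp2c68 and Cyp4f40 lost their calls, and 13 without both iDKO library 2 and control library 2, the lowest in Paneth cell genes of their groups.

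**Figure D2:**
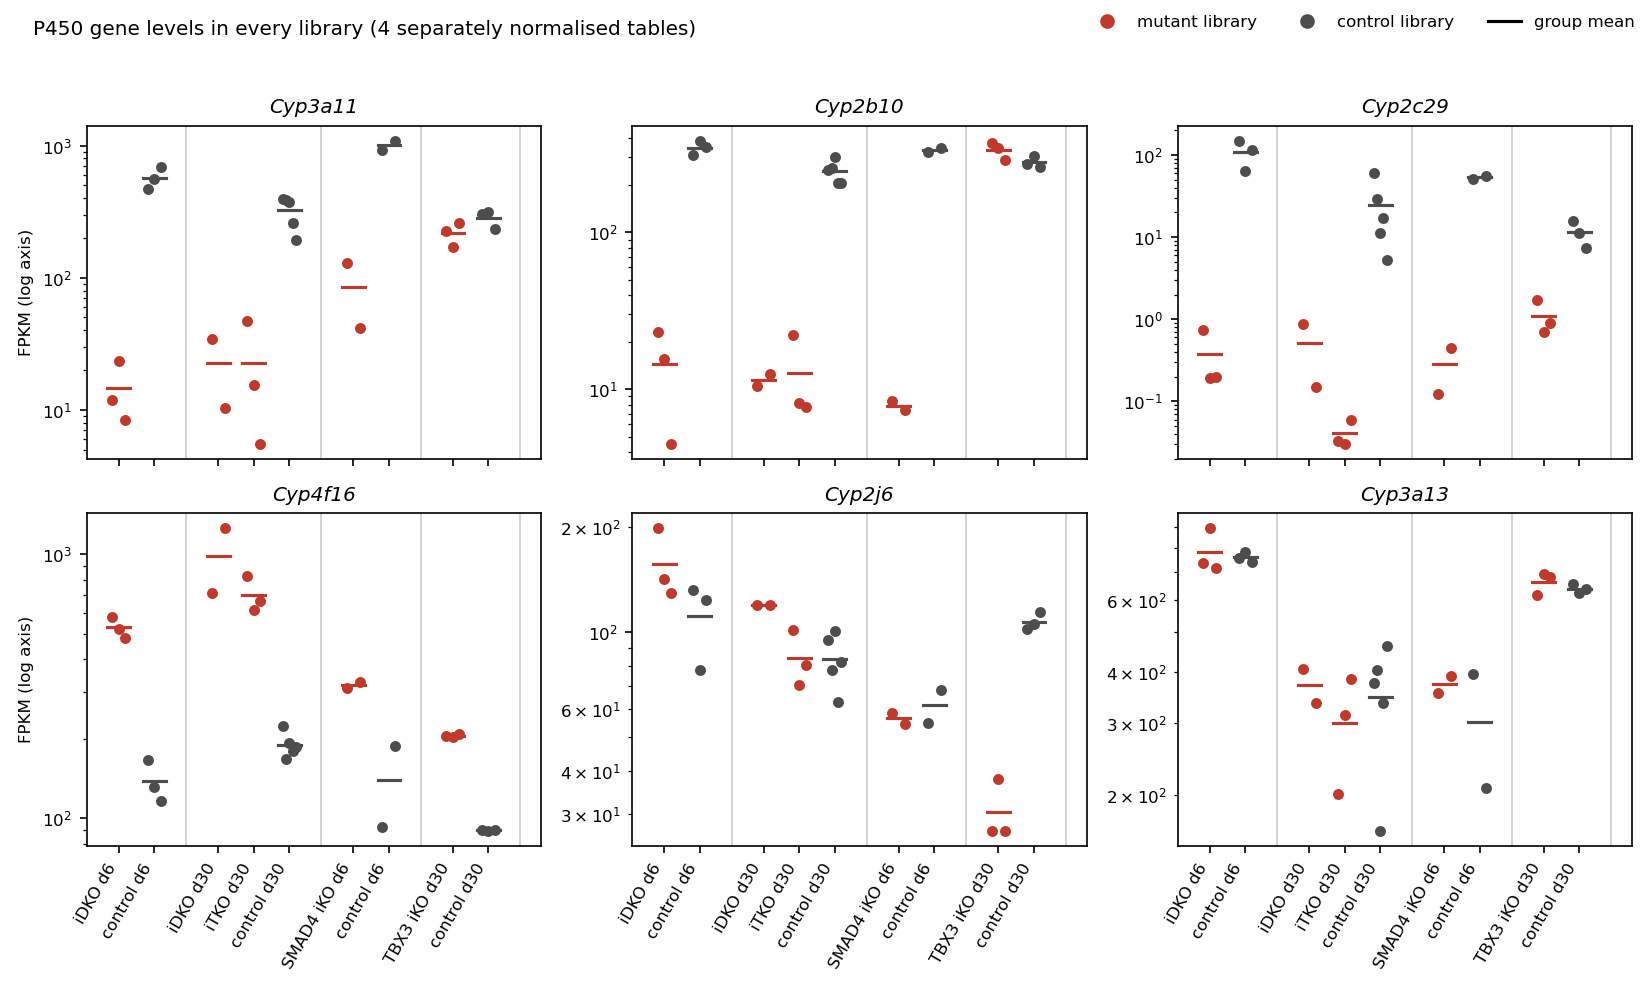
FPKM (log axis) of 6 P450 genes in every library, mutants in red to the left of controls in grey, with group means as lines and the 4 separately normalised tables parted by vertical lines. Cyp3a11 and Cyp2b10 lie below their controls in the SMAD mutants and not in TBX3 iKO, Cyp2c29 is below and Cyp4f16 above in all 5 mutant groups, Cyp2j6 is low in TBX3 iKO, and Cyp3a13 overlaps in every table.

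After 30 days Cyp3a11, Cyp2b10 and Cyp2c29 were low in both SMAD mutants, and Cyp4f16 was high. In libraries labelled SMAD1/5 iDKO, 1 member was higher and 15 lower of 28 tested, against 18.7% of all 11939 genes called, 9.43% higher and 9.31% lower. The members' median log2 change was -1.04, against 0.01 over all genes, and their summed expression was 2405 to 3158 FPKM in iDKO libraries against 3246 to 3969 FPKM in controls. In libraries labelled SMAD1/4/5 iTKO, 1 was higher and 13 lower of the 28, against 18.1% of all genes called, 9.13% higher and 8.95% lower, with a median of -0.49 against 0.01 and a sum of 2604 to 3277 FPKM. Both mutants were set against the same 5 controls, so these counts are not independent of each other. Cyp3a44 and Cyp2c29 were under 1 FPKM in every iDKO and iTKO library and passed through the controls, as did Cyp4f15, Cyp2c67 and Cyp2c23 for iDKO and Cyp1a1 for iTKO.

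Cyp3a11 had 34.6 and 10.3 FPKM in the 2 iDKO libraries and 47.3, 15.5 and 5.54 FPKM in the 3 iTKO libraries, against 396, 386, 376, 261 and 193 FPKM in the 5 controls. All 5 mutant libraries lay below all controls, by log2 changes of -4.0 ± 0.67 in iDKO (adjusted p = 0.0024) and -4.22 ± 0.58 in iTKO (adjusted p = 0.00092). Cyp2b10 had 10.6 and 12.5 FPKM in iDKO libraries and 22.2, 8.23 and 7.73 FPKM in iTKO libraries, against 250.5, 259, 303, 205 and 207 FPKM in controls. Its log2 changes were -4.34 ± 0.33 in iDKO (adjusted p = 3.0e-05) and -4.37 ± 0.29 in iTKO (adjusted p = 1.3e-05), again with no overlap.

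Cyp2c29 had 0.886 and 0.150 FPKM in iDKO libraries and 0.0330, 0.0305 and 0.0592 FPKM in iTKO libraries, against 60.6, 29.0, 11.3, 17.0 and 5.23 FPKM in controls. The iTKO values are worth about 1, 1 and 3 fragments, so no fold is given for iTKO. In iDKO the fitted log2 change was -4.28 ± 0.70, and -5.17 with 0.1 FPKM added in place of 0.5. The gene passed the filter through the controls alone, so no test is given for it. Cyp2c55 had 4.74 and 4.23 FPKM in iDKO libraries and 6.50, 2.72 and 3.21 FPKM in iTKO libraries, against 97.8, 64.4, 45.0, 51.8 and 32.5 FPKM in controls (log2 -3.46 and -3.65, called in both). Cyp2c66 had 13.6 and 6.91 FPKM in iDKO libraries and 17.4, 8.17 and 6.57 FPKM in iTKO libraries, against 78.9, 73.6, 61.6, 55.4 and 40.4 FPKM in controls (log2 -2.57 and -2.56, called in both). Of the 7 Cyp2c genes tested, 6 were lower in iDKO and 5 in iTKO, against 9.31% and 8.95% of all genes, and Cyp2c67 was called in neither. These counts include Cyp2c29 in both mutants and Cyp2c23 in iDKO, which passed the filter through the controls alone and add nothing to them.

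Cyp4f16 was the most abundant member in both day 30 mutants. It had 710.0 and 1253 FPKM in iDKO libraries and 829.5, 612 and 662 FPKM in iTKO libraries, against 223, 167, 192, 180.3 and 187 FPKM in controls. The log2 changes were 2.32 ± 0.20 in iDKO (adjusted p = 6.1e-05) and 1.88 ± 0.18 in iTKO (adjusted p = 0.00011). It held 35.3% of the summed member FPKM in iDKO and 24.6% in iTKO, against 5.11% in controls, where it ranked 8. No other member was called higher on day 30. Cyp4f14, the leading control gene, averaged 357 ± 26.1 FPKM in iDKO libraries against 808 ± 85.2 FPKM in controls, and 513 ± 33.6 FPKM in iTKO libraries against 808 ± 85.2 FPKM in controls, and was called lower in both.

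Cyp4b1 had 37.2 and 10.3 FPKM in iDKO libraries and 18.6, 20.2 and 15.4 FPKM in iTKO libraries, against 107, 104, 120.4, 81.9 and 69.8 FPKM in controls. It was called lower in both, at log2 changes of -2.24 in iDKO and -2.37 in iTKO, and so were Cyp4v3 (-2.04 and -1.21) and Cyp2d22 (-0.90 and -0.82). Cyp2s1 (-0.67), Cyp4f13 (-0.55) and Cyp2c23 (-1.83) were called in iDKO alone. Cyp1a1 had 2.83 and 2.10 FPKM in iDKO libraries and 0.712, 0 and 0.260 FPKM in iTKO libraries, against 39.3, 12.02, 7.36, 3.31 and 1.72 FPKM in controls. The iDKO values fell inside the control range (log2 -1.45 ± 0.87, adjusted p = 0.29). The iTKO values lay under it (fitted log2 -3.38 ± 0.76), where a count of 0 allows up to 0.0692 FPKM (3 fragments, counting error only). Cyp1a1 was under 1 FPKM in every iTKO library, so no test is given for it there. Cyp3a25 was called in neither mutant, at -0.55 in iDKO and -0.17 in iTKO.

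Set against the 2 tamoxifen-injected controls of its own line, iDKO had 13 calls, 1 higher and 12 lower, with Cyp3a11 at -4.33, Cyp2b10 at -4.41, Cyp2c29 at -5.48 and Cyp4f16 at 2.28. Set against the 3 oil-injected controls of its own line, iTKO had 14 calls, with Cyp3a11 at -4.0, Cyp2b10 at -4.32 and Cyp4f16 at 1.90. The shares of all genes called in these 2 fits were not counted, so neither number of calls has a background beside it. Between the 2 kinds of control, tamoxifen against oil, no member was called by limma and 4 of 28 had an unadjusted p below 0.05, against 0.0168% of all genes called and 5.27% with such a p. This last comparison was added after the data were seen, and line and injection cannot be told apart in it.

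No member differed detectably between the libraries labelled SMAD1/4/5 iTKO and those labelled SMAD1/5 iDKO. They differ in the deletion of SMAD4 and in mouse line, which cannot be told apart. The acinar pancreas gene Ctrb1 also differed, at 0.143 to 0.479 FPKM in iTKO libraries against 22.4 to 64.5 FPKM in iDKO libraries. Of the 28 tested between iTKO and iDKO libraries, limma called 0, and 8 had an unadjusted p below 0.05, against 0.762% of all genes called (0.218% higher, 0.544% lower) and 11.4% with such a p. Cyp2c68 came nearest, with 42.4, 47.3 and 45.2 FPKM in iTKO libraries and 24.6 and 32.4 FPKM in iDKO libraries (log2 0.66 ± 0.13, adjusted p = 0.057). It was called when iDKO library 2 was left out and after quantile normalization. Cyp4f14, at 475 to 540 FPKM in iTKO libraries and 339 to 375 FPKM in iDKO libraries, did not overlap either (log2 0.52 ± 0.13, adjusted p = 0.12). The differences for Cyp3a11 (-0.23 ± 0.73) and Cyp2b10 (-0.03 ± 0.36) changed sign with the libraries used, and their errors leave room for changes of either direction.

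After deletion of SMAD4 alone, Cyp3a11, Cyp2b10 and 4 Cyp2c genes were lower on day 6. In SMAD4 iKO libraries 0 of 28 tested members were higher and 10 lower, against 3.42% of all 12202 genes called, 1.28% higher and 2.14% lower. The median log2 change was -0.76 over the members and 0.03 over all genes, and summed expression was 1921 to 2066 FPKM in iKO libraries against 4327 to 4571 FPKM in controls. With 2 libraries a side the calls depended on each library. Their number was 5 without control 1, 6 without control 2, 4 without iKO 1 and 2 without iKO 2, and Cyp2c29 and Cyp2b10 were called in all of these fits. Cyp4f15, Cyp2c23 and Cyp2c29 passed the filter through the controls alone, so the calls of Cyp2c29 add nothing to these counts.

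Cyp3a11 had 128 and 41.4 FPKM in SMAD4 iKO libraries and 927 and 1088 FPKM in controls. The mutant libraries stood apart from each other, yet both lay far under the controls (log2 -3.77 ± 0.52, adjusted p = 0.033), and the call was lost with no filter and with a robust prior (adjusted p = 0.058 and 0.11). It was also lost without control 1 (log2 -3.89), without control 2 (-3.66) and without iKO 2 (-2.96), and kept without iKO 1. Cyp2b10 had 8.42 and 7.33 FPKM in iKO libraries and 326 and 343 FPKM in controls (log2 -5.33 ± 0.14, adjusted p = 0.0015). Cyp2c29 had 0.122 and 0.445 FPKM in iKO libraries and 51.2 and 55.7 FPKM in controls (log2 -6.13 ± 0.24). No test is given for it, since the controls alone took it past the filter.

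In the other gene groups, Cyp2c66 had 17.7 and 10.6 FPKM in SMAD4 iKO libraries and 145 and 156 FPKM in controls (log2 -3.41 ± 0.25, adjusted p = 0.011). Cyp4v3 had 58.8 and 45.6 FPKM in iKO libraries and 329.7 and 246 FPKM in controls (log2 -2.45 ± 0.21, adjusted p = 0.014). Cyp4b1 had 13.1 and 14.3 FPKM in iKO libraries and 69.3 and 62.5 FPKM in controls (log2 -2.22 ± 0.14, adjusted p = 0.011). None of the 3 pairs of groups overlapped. Cyp2c65 (-1.30), Cyp2c68 (-1.35), Cyp2d22 (-1.64) and Cyp4f14 (-0.80) were the other calls. Cyp2c55 missed the threshold although its groups lay apart, with 24.8 and 4.13 FPKM in iKO libraries and 151 and 238 FPKM in controls (log2 -4.13 ± 0.80, adjusted p = 0.067). Cyp4f16 also missed it, with 312 and 328 FPKM in iKO libraries and 92.8 and 187 FPKM in controls (log2 1.27 ± 0.33, adjusted p = 0.13), and was called higher without control 2. Cyp1a1, at 0.0388 and 0.141 FPKM in iKO libraries and 0.0507 and 6.37 FPKM in controls, did not meet the filter.

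After loss of TBX3, a T-box transcription factor, Cyp2c and Cyp2j genes were lower at day 30. Its own message was low in every SMAD mutant. Tbx3 stood at 6.36 to 7.79 FPKM in day 6 iDKO libraries against 35.9 to 40.6 FPKM in controls, and at 13.4 to 14.7 FPKM in SMAD4 iKO libraries against 44.1 to 47.3 FPKM in controls. On day 30 it stood at 15.9 to 19.6 FPKM in iDKO and 11.2 to 18.9 FPKM in iTKO libraries against 47.9 to 70.7 FPKM in controls. In TBX3 iKO libraries Cyp2c29, Cyp2c65, Cyp2c66 and Cyp2c68 fell, the epoxygenase genes Cyp2j6 and Cyp2j9 fell, and Cyp3a11 and Cyp2b10 were not called. Of 25 members tested, 1 was higher and 11 lower, against 3.42% of all 9794 genes called, 1.34% higher and 2.08% lower, with a median log2 change of -0.52 against -0.06 over all genes. Summed expression was 3361 to 3482 FPKM in iKO libraries against 3915 to 4488 FPKM in controls. Cyp2j9, Cyp3a44 and Cyp4a10 passed the filter through the controls alone. Cyp2c29 was also taken past it by the controls, with 1 iKO library above 1 FPKM. The number called was 6 without control 1 or control 2, 5 without control 3, and 7 with no filter or after median centring.

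Cyp2j6 had 26.8, 37.8 and 26.8 FPKM in the 3 TBX3 iKO libraries, against 102, 105 and 114 FPKM in the 3 controls. The highest iKO library was under the lowest control by a wide margin (log2 -1.81 ± 0.15, adjusted p = 0.0036). Cyp2j9 had 0.569, 0.644 and 0.669 FPKM in iKO libraries, against 2.66, 2.89 and 3.15 FPKM in controls, and was tested only because the controls were above the filter. Neither gene was called in any SMAD comparison, where the log2 changes of Cyp2j6 were 0.50 on day 6, 0.53 and 0.01 in iDKO and iTKO on day 30 and -0.12 in SMAD4 iKO. Whether TBX3 and SMAD mutants differ in them was not tested, since the tables were normalised separately.

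Cyp4a10, the PPARA-induced fatty acid hydroxylase gene, had 0.474, 0.415 and 0.381 FPKM in TBX3 iKO libraries, against 2.86, 3.40 and 2.21 FPKM in controls. It too was tested only because the controls were above the filter, so no test is given for it. Cyp4f16 was tight in both groups, with 204, 202 and 208 FPKM in iKO libraries and 90.5, 89.2 and 89.9 FPKM in controls (log2 1.18 ± 0.08, adjusted p = 0.0028). Cyp4v3 averaged 230.4 ± 26.0 FPKM in TBX3 iKO libraries against 396 ± 47.6 FPKM in controls and Cyp4f14 519 ± 39.6 FPKM in TBX3 iKO libraries against 795 ± 16.9 FPKM in controls, both called lower, and both calls were lost after median centring and without any one of the 3 controls. Cyp4f13 (-0.43, adjusted p = 0.05) was at the edge of the threshold.

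Among the Cyp2c genes of TBX3 iKO libraries, Cyp2c29 had 1.70, 0.702 and 0.904 FPKM, against 15.7, 11.2 and 7.37 FPKM in controls (log2 -2.88 ± 0.32). Its 3 controls were enough to meet the filter without the iKO libraries, so no test is given for it. At the estimated depth the iKO values correspond to about 52, 27 and 31 fragments and the controls to 591, 639 and 285. Cyp2c68 had 43.2, 32.6 and 35.8 FPKM in iKO libraries, against 122, 111 and 94.1 FPKM in controls (log2 -1.54 ± 0.15, adjusted p = 0.0058). Cyp2c66 had 46.5, 31.6 and 35.3 FPKM in iKO libraries, against 88.1, 96.6 and 79.4 FPKM in controls (log2 -1.22 ± 0.16, adjusted p = 0.014). All 3 genes were lower in each iKO library than in each control. Cyp2c66 lost its call without any one of the 3 controls (adjusted p = 0.059 to 0.064). Cyp2c65 was lower at a log2 change of -0.91, a call lost without any one control (adjusted p = 0.11 to 0.15), with no filter (0.098), after median centring (0.059) and with no trend (0.058), and Cyp2c55 was not called, at 110.1, 36.5 and 54.9 FPKM in iKO libraries and 66.7, 115 and 68.1 FPKM in controls.

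Cyp3a11 and Cyp2b10, called lower in all 4 SMAD comparisons, were not called after TBX3 loss. Cyp3a11 had 225, 170.3 and 261 FPKM in TBX3 iKO libraries and 303, 317 and 233 FPKM in controls, with overlapping groups (log2 -0.39 ± 0.19, adjusted p = 0.37). Cyp2b10 had 368, 345 and 289 FPKM in iKO libraries and 272, 307 and 260.0 FPKM in controls, also overlapping (log2 0.25 ± 0.13, adjusted p = 0.38). A missed threshold does not show that they were equal. Cyp4b1 averaged 46.7 ± 4.61 FPKM in TBX3 iKO libraries against 71.1 ± 9.56 FPKM in controls (log2 -0.60 ± 0.14, adjusted p = 0.069), with no overlap.

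**Figure D3:**
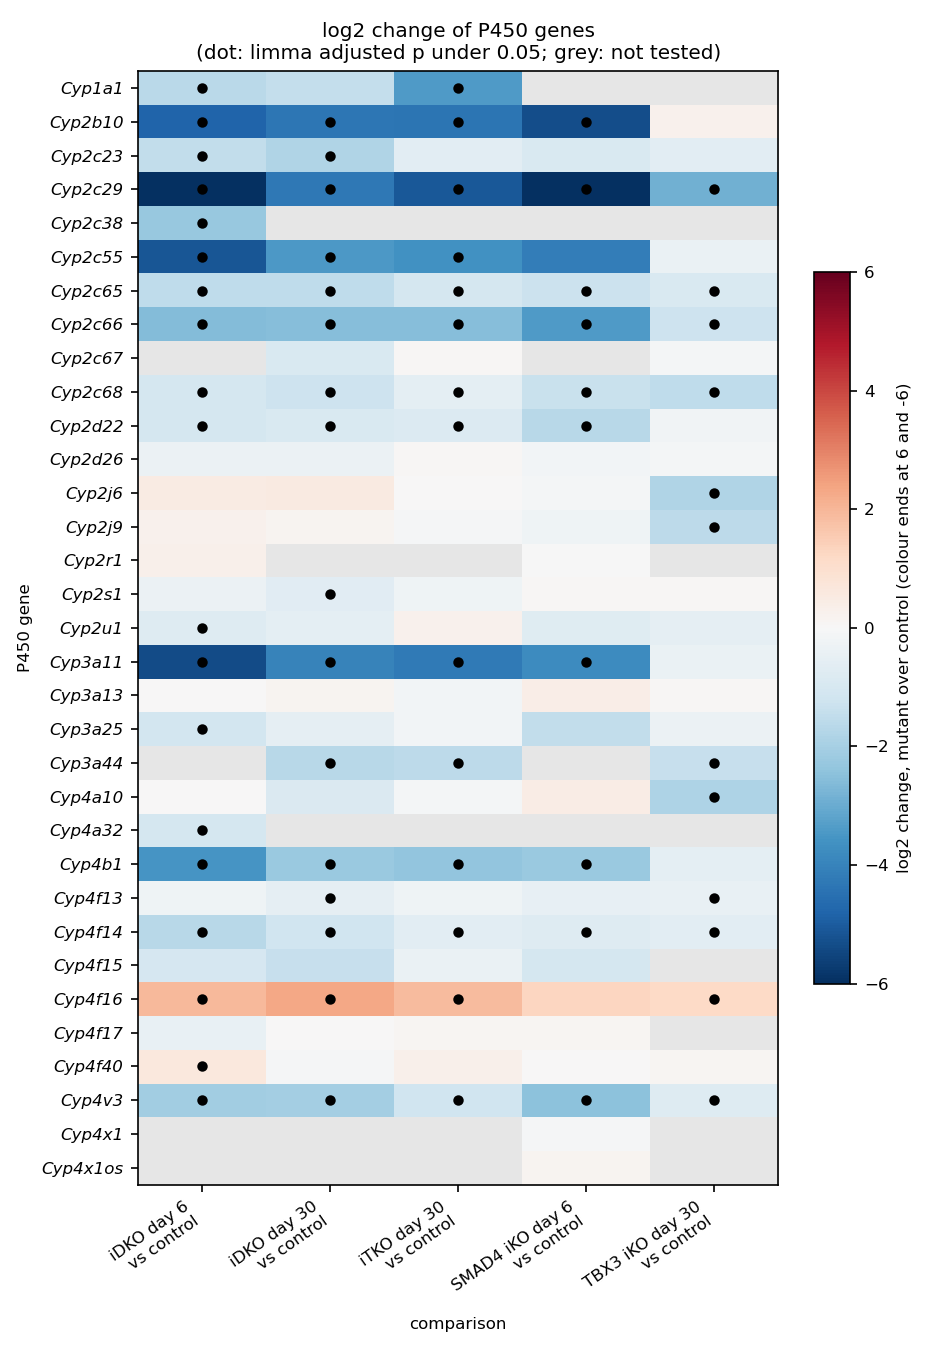
The log2 change, mutant over control, of each tested P450 gene (down the page) in 5 comparisons (across), blue for lower and red for higher in mutants, with a dot for a limma adjusted p below 0.05 and grey for a gene not tested. Of the 23 genes tested in all 5, 6 are lower throughout, Cyp4f16 is red in every column, and Cyp2d26 and Cyp3a13 have no dot.

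Across the 5 comparisons of a mutant with controls, 23 members were tested every time. Cyp2c29, Cyp2c65, Cyp2c66, Cyp2c68, Cyp4f14 and Cyp4v3 were lower in all 5. Of all genes, 8.26% were lower in day 6 iDKO, 9.31% in day 30 iDKO and 8.95% in iTKO. In SMAD4 iKO and TBX3 iKO 2.14% and 2.08% were lower. The share of all genes lower in all 5, or in the 4 SMAD comparisons, was not counted. Of the 6 genes, Cyp2c29 passed the filter through the controls alone in the SMAD comparisons, so its calls there add nothing. In the TBX3 comparison its controls were enough to meet the filter, so its call there adds nothing either. Without any one control the TBX3 calls of Cyp2c65, Cyp2c66, Cyp4f14 and Cyp4v3 were lost, and without any one library the SMAD4 calls of Cyp2c65, Cyp2c68 and Cyp4f14. Cyp2b10, Cyp3a11, Cyp2d22 and Cyp4b1 joined them in the 4 SMAD comparisons, of which Cyp2b10 kept its call in every fit that left out a library. No member was called higher in all 5, and Cyp4f16 was called higher in every one but SMAD4 iKO. Cyp2d26 and Cyp3a13 were called in none. The day 30 iDKO and iTKO comparisons share their controls.

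Neighbouring P450 genes did not all move together. In the RefSeq order (GRCm38.p6) Cyp2c55, Cyp2c65, Cyp2c66 and Cyp2c29 follow each other on chromosome 19, and on day 6 their log2 changes in iDKO libraries were -5.13, -1.52, -2.58 and -6.95. The value for Cyp2c29 rests on mutant levels under 1 FPKM and depends on the constant added before taking logs. The sizes of these changes were not compared by a test. On chromosome 17 Cyp4f16 lies between Cyp4f17 and Cyp4f37, and its log2 change of 1.95 in day 6 iDKO libraries stood beside -0.44 for Cyp4f17 (adjusted p = 0.15) and 0.63 for Cyp4f40, the gene after Cyp4f37. Further along, Cyp4f14 had a log2 change of -1.67 and its neighbour Cyp4f13 had -0.25 (adjusted p = 0.16).

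On chromosome 5 Cyp3a44, Cyp3a11 and Cyp3a25 are neighbours and Cyp3a13 lies apart from them. On day 30 in iTKO libraries their log2 changes were -1.58, -4.22 and -0.17, and that of Cyp3a13 was -0.18. Cyp3a44 was low, at 0.286, 0.329 and 0.128 FPKM in iTKO libraries and 0.838 to 4.43 FPKM in controls. On chromosome 4 the adjacent genes Cyp2j6 and Cyp2j9 were both lower in TBX3 iKO libraries, and the sizes of their changes were not compared by a test. On chromosome 7 Cyp2s1 and Cyp2b10 are neighbours, and in day 6 iDKO libraries Cyp2s1 was at -0.36 (adjusted p = 0.16) beside -4.80 for Cyp2b10.

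**Figure D4:**
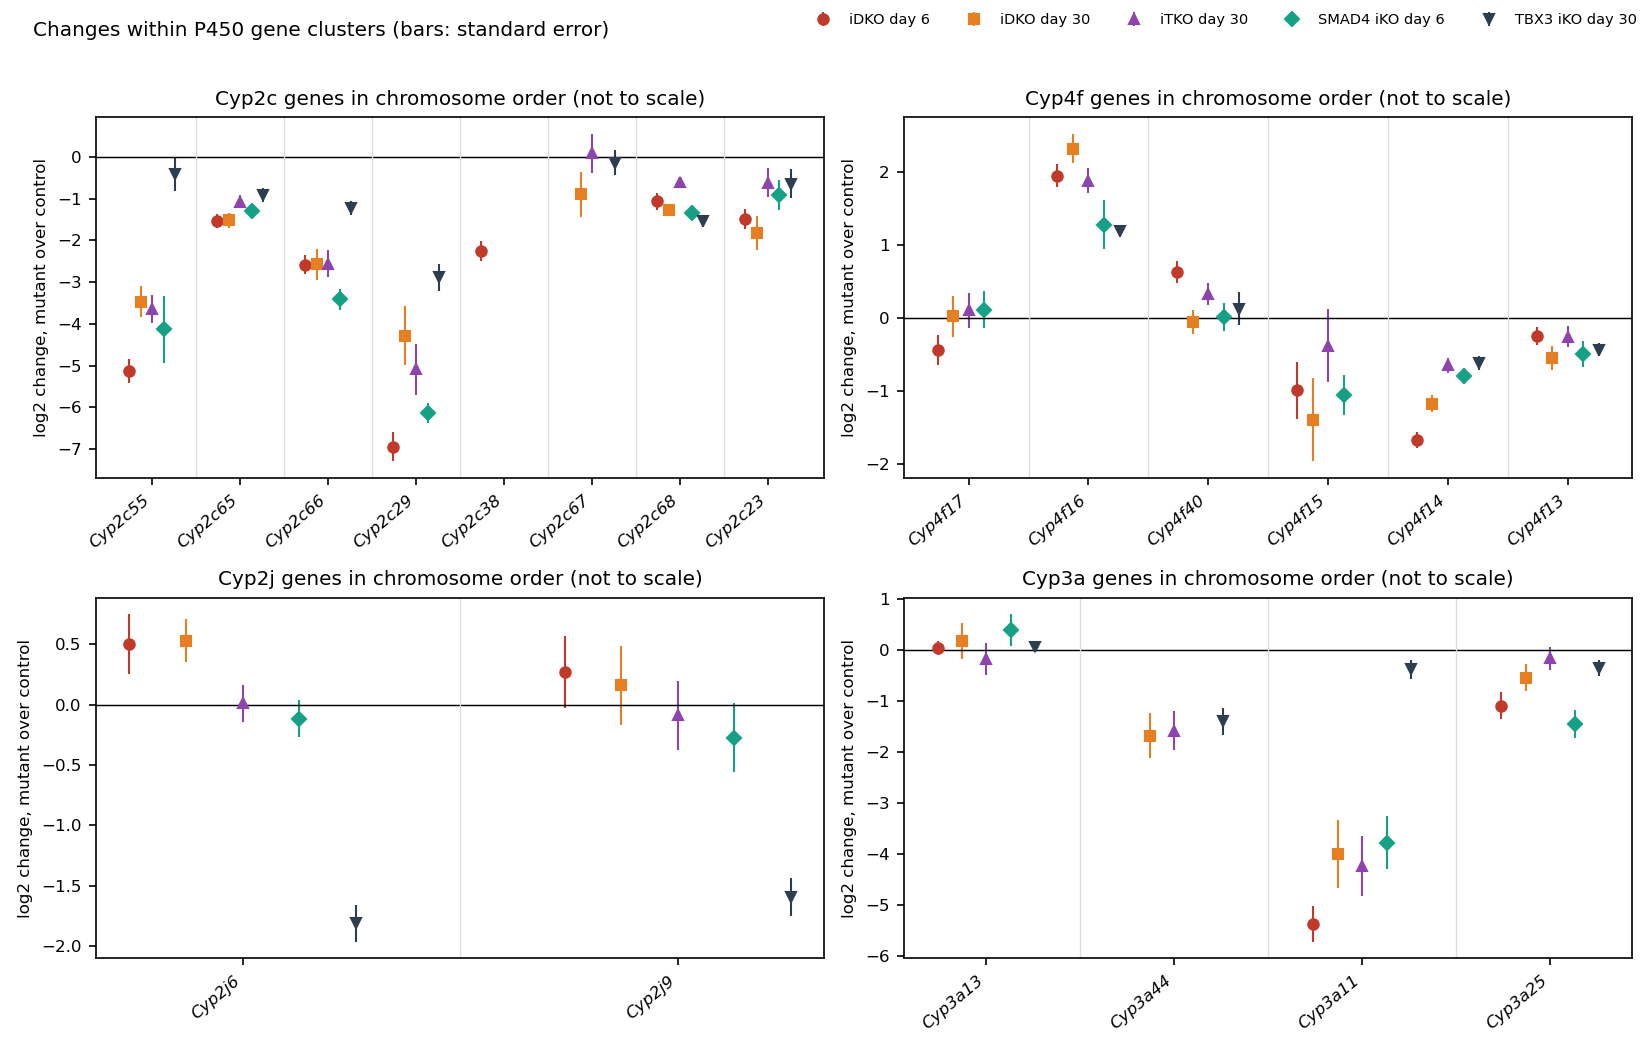
The log2 change with its standard error, mutant over control, of the tested genes of 4 P450 subfamilies in chromosome order (not to scale), with a marker for each of 5 comparisons. Cyp4f16 stands highest of the Cyp4f genes in each comparison, Cyp3a11 lies lowest of the Cyp3a genes in the SMAD comparisons, and the dark triangles of TBX3 iKO lie lowest for Cyp2j6 and Cyp2j9.

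Related P450 genes can share reads, so the shared sequence was measured. Of the 65 members, 44 held no stretch of 150 bases, the read length, that also occurs in a transcript of another gene (GENCODE M21), and 5 shared over 10% of their stretches. Cyp2c29, Cyp3a11, Cyp2b10, Cyp2c55, Cyp4b1, Cyp4f14, Cyp2j6 and Cyp2j9 shared none. Cyp2c65 and Cyp2c66 shared 4.55% and 4.16% with each other, Cyp2c68 8.83% with Cyp2c40, Cyp4v3 4.48% with a predicted gene and Cyp4f16 1.60% with Cyp4f37. Only identical stretches were counted, and an aligner also accepts mismatches, so the values of Cyp2c65, Cyp2c66, Cyp2c67 and Cyp2c68 carry that uncertainty. Cyp4x1 and its antisense partner Cyp4x1os, each under 2 FPKM, overlap and cannot be told apart without strand.

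Transcripts of proteins that feed electrons to P450s moved in both directions in the SMAD1/5 line. Por, which encodes the P450 reductase, was higher on day 6, at 203 ± 14.0 FPKM in iDKO libraries against 118 ± 5.31 FPKM in controls (log2 0.79 ± 0.10, adjusted p = 0.0031), and on day 30, at 445 ± 19.0 FPKM in iDKO libraries against 207 ± 18.2 FPKM in controls (log2 1.11 ± 0.11, adjusted p = 0.00013). It was also higher in iTKO (log2 0.51 ± 0.10). The cytochrome b5 genes Cyb5a (log2 -0.90 ± 0.19) and Cyb5b (-0.62 ± 0.15) were lower on day 6. Of the 6 redox partners, 2 were higher and 3 lower on day 6, 2 and 2 in day 30 iDKO, 2 and 1 in iTKO, and 0 in SMAD4 iKO and TBX3 iKO. Of all genes, 23.8%, 18.7% and 18.1% were called in the first 3 of these comparisons, and 3.42% in each of SMAD4 iKO and TBX3 iKO.

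Receptors and factors known to drive P450 genes were followed as a list. Of 15 tested regulators, 1 was higher and 3 lower on day 6 in iDKO libraries, 1 and 2 on day 30, none in iTKO or SMAD4 iKO, and 1 and 1 in TBX3 iKO. The shares over all genes were 23.8% on day 6, 18.7% in day 30 iDKO, 18.1% in iTKO and 3.42% in each of SMAD4 iKO and TBX3 iKO. In iDKO the counts of called regulators were near these shares. Hnf4a, a master factor of enterocyte and liver genes, was higher in day 6 iDKO libraries (log2 0.62 ± 0.09), and its relative Hnf4g was lower (-1.02 ± 0.15). Vdr, the vitamin D receptor and an activator of CYP3A genes, was lower on day 6, at 55.0 ± 17.6 FPKM in iDKO libraries against 120.0 ± 9.76 FPKM in controls (log2 -1.16 ± 0.22, adjusted p = 0.012), and again on day 30 (log2 -1.08 ± 0.15). Vdr was not called in SMAD4 iKO (log2 -1.02 ± 0.18, limma adjusted p = 0.057) or in iTKO (log2 -0.37 ± 0.13, limma adjusted p = 0.081). Rxra, the shared partner of PXR, CAR and the vitamin D receptor, was lower on day 6 (-0.52 ± 0.10). After TBX3 loss the bile acid receptor gene Nr1h4 was higher, at 58.1 ± 9.86 FPKM in TBX3 iKO libraries against 14.0 ± 1.63 FPKM in controls (log2 2.00 ± 0.16, adjusted p = 0.0031), and the glucocorticoid receptor gene Nr3c1 lower (-0.67 ± 0.13). Nr1i2 and Nr1i3, which encode PXR and CAR, and Ahr were called in no comparison.

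Of 4 tested P450 genes outside families 1 to 4, 2 were higher and 1 lower on day 6 in iDKO libraries, against 15.5% and 8.26% of all genes. On day 30 they were 1 and 1 of 4 in iDKO, against 9.43% and 9.31%, and 1 and 0 of 4 in iTKO, against 9.13% and 8.95%. None of 5 was called in SMAD4 iKO and none of 3 in TBX3 iKO, against 3.42% of all genes in each. Cyp51, which makes sterols, stood at 20.4 to 26.4 FPKM in iDKO libraries against 9.91 to 17.0 FPKM in controls on day 6, and at 115 to 194 FPKM in iDKO and 52.9 to 97.2 FPKM in iTKO libraries against 21.1 to 44.9 FPKM in controls on day 30.

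Genes of other epithelial and immune cells moved with some of these comparisons. In bulk tissue, fewer cells of a type and less RNA per cell cannot be told apart. On day 30, 6 of 6 Paneth cell genes were lower in both mutants, with summed levels of 5827 to 6213 FPKM in iDKO and 3678 to 7733 FPKM in iTKO libraries against 13935 to 20210 FPKM in controls. Of 5 goblet cell genes tested, 4 were lower in both, and of 6 leukocyte genes 4 were lower in iDKO and 5 in iTKO. Leukocyte sums were 63.9 to 96.7 FPKM in iDKO and 52.5 to 79.7 FPKM in iTKO libraries against 141 to 209 FPKM in controls. Enterocyte sums were 26719 to 30995 FPKM in iDKO and 24546 to 31557 FPKM in iTKO libraries against 23037 to 27790 FPKM in controls, with 1 of 8 genes higher and 1 lower in iDKO, and 1 higher and 4 lower in iTKO. Beside these counts, 9.31% of all genes were lower and 9.43% higher in iDKO, and 8.95% were lower and 9.13% higher in iTKO.

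The acinar pancreas gene Ctrb1 stood at 22.4 and 64.5 FPKM in the day 30 iDKO libraries against 0 to 0.234 FPKM in controls, at 0.143 to 0.479 FPKM in iTKO libraries against the same controls, and at 7.92 to 19.3 FPKM in day 6 iDKO libraries against 0.161 to 9.52 FPKM in controls. On day 6, 0 of 6 Paneth genes were called, with sums of 90.4 to 3658 FPKM in iDKO libraries and 65.0 to 7758 FPKM in controls. Leukocyte sums on day 6 were 35.2 to 93.6 FPKM in iDKO libraries and 85.8 to 117 FPKM in controls, with 0 of 5 genes called. In SMAD4 iKO libraries leukocyte sums were 27.3 to 46.1 FPKM against 84.6 to 110 FPKM in controls, with 0 of 6 genes called. In TBX3 iKO libraries they were 22.6 to 145 FPKM against 59.6 to 104 FPKM in controls, with 0 of 4 called. Genes of the ileum summed to 699.9 to 849.8 FPKM in TBX3 iKO libraries against 420.1 to 643 FPKM in controls, without overlap, and 1 of 3 tested, the bile acid exporter gene Slc51b, was higher. Of 8 enterocyte genes 1, Apoa4, was lower in TBX3 iKO. Genes of the proximal intestine summed to 37.1 to 39.2 FPKM in TBX3 iKO libraries against 36.9 to 42.6 FPKM in controls, and 0 of 2 tested were called. The shares of all genes in TBX3 iKO were 1.34% higher and 2.08% lower. In either direction, 23.8% of all genes were called in day 6 iDKO and 3.42% in each of SMAD4 iKO and TBX3 iKO. Markers of fibroblasts and smooth muscle summed to at most 8.90 FPKM and those of endothelium to at most 1.26 FPKM in any library. The part of these cell types and gut regions in the P450 changes was not tested.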

How the data were processed

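RNA from whole epithelium of 26 libraries was poly(A)-selected and sequenced as paired reads of 150 bases, per the labels' protocols. The authors deposited FPKM values in 4 tables, each normalised on its own. HISAT2 2.2.1 and featureCounts 2.0.1, and the builds GRCm39 and mm10, are named in the submitters' processing notes; the strand setting and the tool that made the FPKM are not given in the sources used here.

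Values were taken as log2(FPKM + 0.5), genes with at least 1 FPKM in as many libraries as the smallest group were kept, and groups were compared with limma 3.58.1 (trend on mean level, two-sided, R 4.3.3) in one fit per table, with Benjamini-Hochberg adjustment over all genes kept and a threshold of 0.05. A log2 change on this scale understates that of low genes. The procedure was tested on simulated data. Depth was estimated from the steps between low FPKM values, and intervals and limits from it cover counting error only. The members, the gene lists and the rule for named genes were chosen with earlier results of these data known. The rule gives values per library for Cyp3a11, Cyp2b10 and Cyp2c29 and, in each comparison, for up to 6 called members of largest rise and 6 of largest fall with a mean of at least 5 FPKM in the higher group; any tested member may be named with its change. Values per library of other members (Cyp3a13, Cyp1a1, Cyp2j9 and Cyp4a10 among them) were added after their values were seen.

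Whether equal replicate numbers pair libraries was checked by the correlation of deviations from group means. It was 0.14, 0.58 and 0.22 for the 3 day 6 SMAD1/5 pairs. Libraries of unlike number there ran from -0.46 to 0.37, so pairing was not clear. For TBX3 it was -0.15, -0.31 and -0.01, and it was of mixed sign for the day 30 SMAD libraries. The main fits treated no libraries as paired, on day 6 too. SMAD4 has only 2 numbers (0.28 for each). Alternatives were other added constants and filters, median centring, quantile normalization, other limma settings, a replicate block, other controls and leaving out each library. Promoter windows came from RefSeq and shared stretches from GENCODE M21 transcripts. Tables were handled with Python 3.11.15, numpy 2.4.6 and pandas 2.3.3.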

Additional observations from a re-analysis of the deposited data

Results flagged for a closer look

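Cyp1a1, the AHR-induced P450 gene, had 1 control library far from the others. Its level was 39.3 FPKM in the first tamoxifen-injected SMAD1/5-line control of day 30, against 12.02 FPKM in the next highest of the 5 controls and 1.72 FPKM in the lowest. The gap to the next library was 0.726 of the whole range, above the limit of 0.71 for 5 libraries. Cyp1a1 was the 1 gene flagged among 28 members looked at in the same 5 controls. Chance alone flags about 1 in 20, so 1 flag among 28 is no more than chance gives. Of the controls, the 2 tamoxifen-injected libraries had 39.3 and 12.02 FPKM and the 3 oil-injected libraries 7.36, 3.31 and 1.72 FPKM (log2 2.46 ± 0.60, limma adjusted p = 0.69). Cyp2c29 was higher in the same 2 libraries, at 60.6 and 29.0 FPKM, against 11.3, 17.0 and 5.23 FPKM in the oil-injected controls (log2 2.01 ± 0.48, limma adjusted p = 0.69), a difference that was not called either.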

How the results depend on the processing

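The counts of called members on day 6 (19), in day 30 iDKO (16) and in iTKO (14) stayed within 1.5 times under every setting tried, and leaving out single libraries gave 13 to 19, 12 to 17 and 13 to 14. Leaving out single libraries gave 2 to 6 calls for SMAD4 iKO (10) and 5 to 9 for TBX3 iKO (12), where smaller groups enter each fit and a lone library is assumed to vary like the others. For TBX3 iKO no filter and median centring gave 7 calls each. Between iTKO and iDKO, 0 became 1 (Cyp2c68) after quantile normalization, and leaving out single libraries gave 0 to 1. With the replicate number as a block, the count was 17 for day 6, 13 for day 30 iDKO, 12 for iTKO, 0 between iTKO and iDKO, 10 for SMAD4 iKO and 4 for TBX3 iKO (Cyp2c29, Cyp4f16, Cyp2j6 and Cyp2c68). Whether the numbers pair the libraries is not known. Of 40 named results, 30 kept direction and call under every setting. The difference of Cyp3a11 between iTKO and iDKO turned positive under the block (0.15), without iDKO 1 (0.62) and without iTKO 3 (0.50), and that of Cyp2b10 under the block (0.060), without iDKO 2 (0.09), without iTKO 2 (0.19) and without iTKO 3 (0.23); leaving out single libraries spanned -1.08 to 0.62 for Cyp3a11 and -0.50 to 0.23 for Cyp2b10, none called, and the cause was not tested. FPKM hides counts, so genes of low level such as Cyp1a1 and Cyp2c29 in mutants rest on few fragments, and depth is unknown for SMAD4.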
